A study of Mus musculus with 4 samples.

Results

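The Zic genes encode zinc finger transcription factors, and the members described here are Zic1, Zic2, Zic4 and Zic5. They were taken by gene symbol from a table of 55487 genes, and all 4 were above the level required for testing. The table holds RNA abundances in nuclei of excitatory neurons (2 libraries) and of inhibitory neurons (2 libraries), separated by fluorescence-activated sorting from brains without the olfactory bulb. All were from adult wild-type mice with no treatment named, the labels put all 4 libraries in batch 1, and no source used here names the sorting markers, the strain or any pooling of animals. Values are TPM, transcript abundances divided by transcript length and scaled to the same total in each library. Nothing in the labels ties the replicates to separate animals. The p-values therefore cover only the variation among these libraries, which may be technical.

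ZIC proteins are named for the cerebellum, where granule neurons carry them into adult life. They share a block of C2H2 zinc fingers with the GLI factors of the Hedgehog pathway, through which they bind DNA and GLI proteins. In development they act in the dorsal neural tube, the neural crest, the cerebellum and the medial forebrain. Deletion of the neighbouring genes ZIC1 and ZIC4 has been linked to a cerebellar malformation in people, and loss of ZIC2 function to holoprosencephaly. Beyond neurons, Zic genes are known from the meninges and from some glia, and in the olfactory bulb from interneurons.

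The members lie in head-to-head pairs. Zic1 (chromosome 9, 91358058 to 91365810, minus strand, mm10) and Zic4 (91362413 to 91389348, plus strand) overlap by 3398 bases of their spans. Zic5 (chromosome 14, 122456795 to 122465677, minus strand) and Zic2 (122475435 to 122479852, plus strand) do not overlap, and their starts are 9758 bases apart. The exons of Zic1 and Zic4 share only 60 bases, which is 1.05% of the annotated exon bases of Zic1 and 0.581% of those of Zic4. All 60 belong to the first exon of a single short Zic4 transcript (322 exon bases), and 11 of the 12 Zic4 transcripts share no exon base with Zic1. The libraries keep the strand, per the labels' protocols, but no source used here says whether strand was used in quantification.

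The zinc fingers make the members alike in sequence, which bears on whether reads could be assigned to the right gene. The stretch of 150 coding bases most alike in all 4 members, equal in length to 1 read of the libraries, is shown from the GENCODE M21 transcripts (GRCm38). It lies at chr9:91364140-91364289 (minus strand) in Zic1, chr14:122476494-122476643 (plus) in Zic2, chr9:91379149-91379298 (plus) in Zic4 and chr14:122463996-122464145 (minus) in Zic5, within the region that encodes zinc fingers. Capitals mark bases that differ from Zic1.
Zic1: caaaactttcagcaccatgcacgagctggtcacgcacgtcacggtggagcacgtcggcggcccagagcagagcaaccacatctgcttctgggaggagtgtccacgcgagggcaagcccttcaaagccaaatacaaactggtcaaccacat
Zic2: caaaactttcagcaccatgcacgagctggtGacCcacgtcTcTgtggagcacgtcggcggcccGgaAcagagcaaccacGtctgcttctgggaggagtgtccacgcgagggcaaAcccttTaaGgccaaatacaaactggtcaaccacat
Zic4: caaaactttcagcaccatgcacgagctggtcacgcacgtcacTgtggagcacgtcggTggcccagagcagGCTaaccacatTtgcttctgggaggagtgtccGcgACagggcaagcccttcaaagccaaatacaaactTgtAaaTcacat
Zic5: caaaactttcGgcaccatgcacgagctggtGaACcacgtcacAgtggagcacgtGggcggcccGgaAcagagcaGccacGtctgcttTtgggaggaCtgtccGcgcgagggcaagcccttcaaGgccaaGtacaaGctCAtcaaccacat
Of these 150 bases, 120 were the same in all 4 members. Zic2 differed from Zic1 at 10 bases, Zic4 at 12 and Zic5 at 18. Over the whole aligned coding sequence, identity to Zic1 was 75.5% for Zic2, 66.8% for Zic4 and 59.5% for Zic5. Over all annotated transcripts, untranslated exon parts included, the longest run of identical bases between any pair of members was 42 on the same strand (Zic1 and Zic4), shorter than a read of 150 bases. Introns were not compared. On opposite strands, the longest run shared by Zic1 and Zic4 was 63 bases.

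RefSeq promoters (GRCm38.p6, 250 bases before to 50 after the start) were at hand for 3 of the 4 members. Those of Zic1 and Zic4 are shown, the only pair with both promoters at hand. The Zic4 promoter shown lies outside the span of Zic1, so it is not the start of the Zic4 transcript that overlaps Zic1. The Zic1 promoter is chr9:91365719-91366018 (minus strand) and the Zic4 promoter chr9:91368722-91369021 (plus strand). Capitals mark the motif found.
Zic1: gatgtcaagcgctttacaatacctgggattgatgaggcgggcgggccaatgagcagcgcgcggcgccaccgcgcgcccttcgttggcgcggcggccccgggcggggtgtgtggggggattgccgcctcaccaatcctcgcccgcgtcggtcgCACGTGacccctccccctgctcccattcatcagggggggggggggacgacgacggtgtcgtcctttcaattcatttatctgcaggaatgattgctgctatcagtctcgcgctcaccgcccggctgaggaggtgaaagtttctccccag
Zic4: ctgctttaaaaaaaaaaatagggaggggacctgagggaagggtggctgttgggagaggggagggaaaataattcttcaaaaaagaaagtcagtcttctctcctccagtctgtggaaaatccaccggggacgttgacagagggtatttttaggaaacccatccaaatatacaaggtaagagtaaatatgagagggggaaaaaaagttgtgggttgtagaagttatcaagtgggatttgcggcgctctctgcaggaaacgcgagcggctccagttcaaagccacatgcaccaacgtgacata
The Zic1 promoter was 65.3% G and C with 31 CpG dinucleotides, more than in 89.4% of the 32851 promoters listed. The Zic4 promoter was 46.0% G and C with 8 CpG, and the Zic5 promoter 62.7% with 15 CpG, against a median of 52.7% and 7 CpG. Both strands were searched for 4 motifs. These were the ZIC motif CAGCAGG (in 10.5% of all promoters listed), the EGR motif GCGTGGGCG (0.612%), the letters GTGGGCG contained in it (7.97%) and the E-box CACGTG (7.15%). The only match in the 3 promoters was an E-box in Zic1, whose first base is at base 153 of the sequence shown. A match, or its absence, in these windows says nothing of binding by a factor.

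The comparison of excitatory with inhibitory nuclei asked how the transcripts of these populations differ. Zic1, Zic2 and Zic4 were lower in excitatory nuclei, at 27.8% to 43.3% of their inhibitory levels. Zic5 stood at 41.1% of its inhibitory level and did not pass the test. Calls are limma tests on log2(TPM + 1) over the 26055 genes that reached 1 TPM in 2 or more libraries, at a Benjamini-Hochberg adjusted p under 0.05. Of the 4 members, 3 passed towards inhibitory nuclei and Zic5 did not, against 12% of all genes tested that passed in either direction, 5.43% towards excitatory and 6.62% towards inhibitory nuclei. Those 3 had log2 fold changes of -1 or below, and 4.6% of all genes tested passed towards inhibitory nuclei with a change of that size. In all 4 members both excitatory libraries lay below both inhibitory ones, as in 33.3% of all genes tested, and groups did not overlap in one direction or the other for 56.2%.

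Zic1, a factor of granule neuron precursors and the dorsal neural tube, had 14.6 and 13.8 TPM in excitatory libraries, against 33.5 and 35.5 TPM in inhibitory libraries. Both excitatory libraries lay below both inhibitory ones, and libraries of a group were close together. The mean was 14.2 ± 0.542 TPM in excitatory and 34.5 ± 1.39 TPM in inhibitory nuclei (SD, n = 2 each), a log2 fold change of excitatory over inhibitory of -1.22 ± 0.14 (SE; limma, adjusted p = 0.00587). Zic4, its partner on the other strand, had 4.79 and 5.86 TPM in excitatory libraries, against 18.1 and 20.2 TPM in inhibitory libraries. Its groups also did not overlap, and among the members it stood lowest in excitatory relative to inhibitory nuclei. The log2 fold change of Zic4 was -1.68 ± 0.21 (limma, adjusted p = 0.00713).

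Taken as a single gene, Zic1 plus Zic4 summed to 19.5 ± 0.217 TPM in excitatory and 53.6 ± 2.92 TPM in inhibitory nuclei (SD, n = 2 each). TPM divides the reads of each gene by its own length, so this sum still depends on how reads were divided between the strands. The sum had a log2 fold change of -1.41 ± 0.12 (limma, adjusted p = 0.00317). Its standard error was below that of either gene alone.

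Zic2, needed for closure and patterning of the forebrain and known from the retina, where it marks axons that do not cross the midline, had 11.2 and 11.6 TPM in excitatory libraries, against 29.0 and 23.8 TPM in inhibitory libraries. The excitatory libraries were nearly equal and the inhibitory ones further apart, with no overlap between groups. The log2 fold change was -1.13 ± 0.17 (limma, adjusted p = 0.0133). Zic5, which lies beside it and is known from neural crest development, had 1.61 and 2.29 TPM in excitatory libraries, against 4.23 and 5.27 TPM in inhibitory libraries. Here too the groups did not overlap, but the level was low and the spread wide relative to it. The log2 fold change was -0.97 ± 0.29 (limma, adjusted p = 0.0912). With protein-coding genes alone, rescaled to the same total, Zic5 passed (-1.06, adjusted p = 0.0335). Zic2 plus Zic5 as a single gene had a log2 fold change of -1.16 ± 0.16 (limma, adjusted p = 0.00886).

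**Figure D1:**
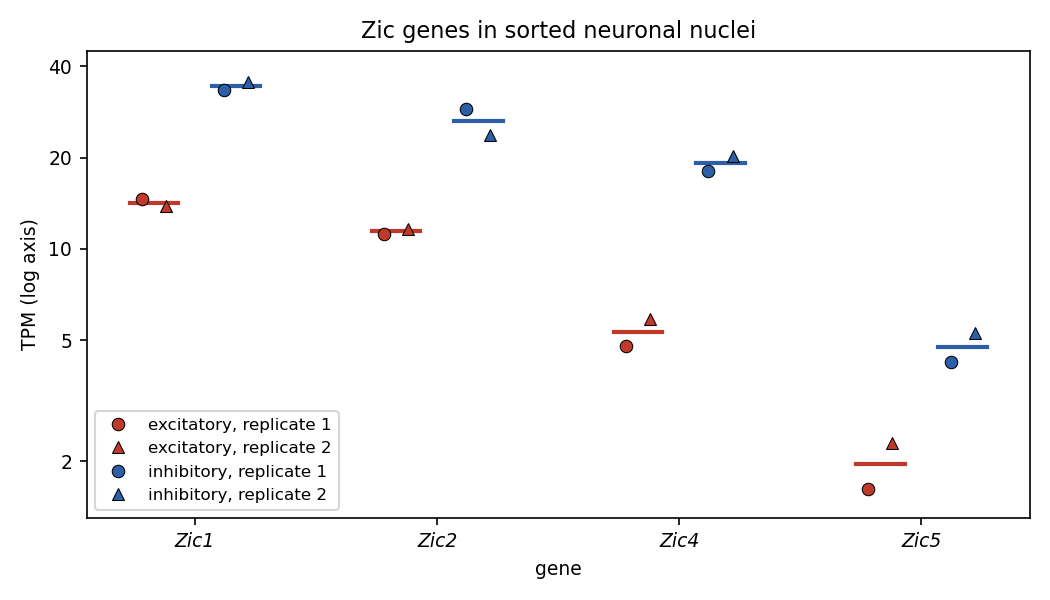
TPM on a log axis for the 4 Zic members in each library, with excitatory libraries in red and inhibitory libraries in blue, replicate 1 as circles, replicate 2 as triangles and the mean of a group as a bar. For each gene both excitatory libraries lie below both inhibitory ones, with Zic1 highest at 14.2 TPM (excitatory mean) and 34.5 TPM (inhibitory mean).

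The order of levels was the same in both populations, with Zic1 highest, then Zic2, Zic4 and Zic5. No neighbours in this order overlapped between libraries of a group. The gap between Zic1 and Zic2 was 2.78 TPM in excitatory nuclei and 8.09 TPM in inhibitory nuclei, where the SDs of both genes summed to 0.815 and 5.11 TPM. In excitatory libraries Zic1 was above 56.6% and 53.4% of all genes tested, against 74.8% and 75.7% in inhibitory libraries. Zic5 was above 12.6% and 16.9% of genes in excitatory libraries, against 26.4% and 29.8% in inhibitory libraries.

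The summed level of the 4 members was 32.2 and 33.6 TPM in excitatory libraries, against 84.8 and 84.7 TPM in inhibitory libraries. That is 2.58-fold higher in inhibitory nuclei, with groups that did not overlap. With 2 libraries a group, the two-sided exact permutation test gave p = 0.333, the smallest possible here. Within this sum, Zic4 made up 14.9% and 17.4% in excitatory libraries, against 21.3% and 23.9% in inhibitory libraries. Zic1 made up 45.3% and 41.1% in excitatory libraries and 39.5% and 41.9% in inhibitory libraries, which overlap.

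Ratios between members were compared for all 6 pairs. Zic4 stood at 32.8% and 42.4% of Zic1 in excitatory libraries, against 53.9% and 57.1% in inhibitory libraries, and these did not overlap. The ratio of Zic4 to Zic2 likewise did not overlap, at 42.6% and 50.4% in excitatory libraries against 62.3% and 85.2% in inhibitory libraries. Zic2 relative to Zic1 (77.0% and 84.1% in excitatory, 86.6% and 67.0% in inhibitory libraries) and Zic5 relative to Zic1 (11.1% and 16.6%, against 12.6% and 14.9%) overlapped between groups. For the 3 pairs with Zic4, the exact two-sided permutation test gave p = 0.333 each, the smallest this design allows, and p = 0.667 adjusted over the 6 pairs, so a larger change of Zic4 than of the other members was not shown.

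**Figure D2:**
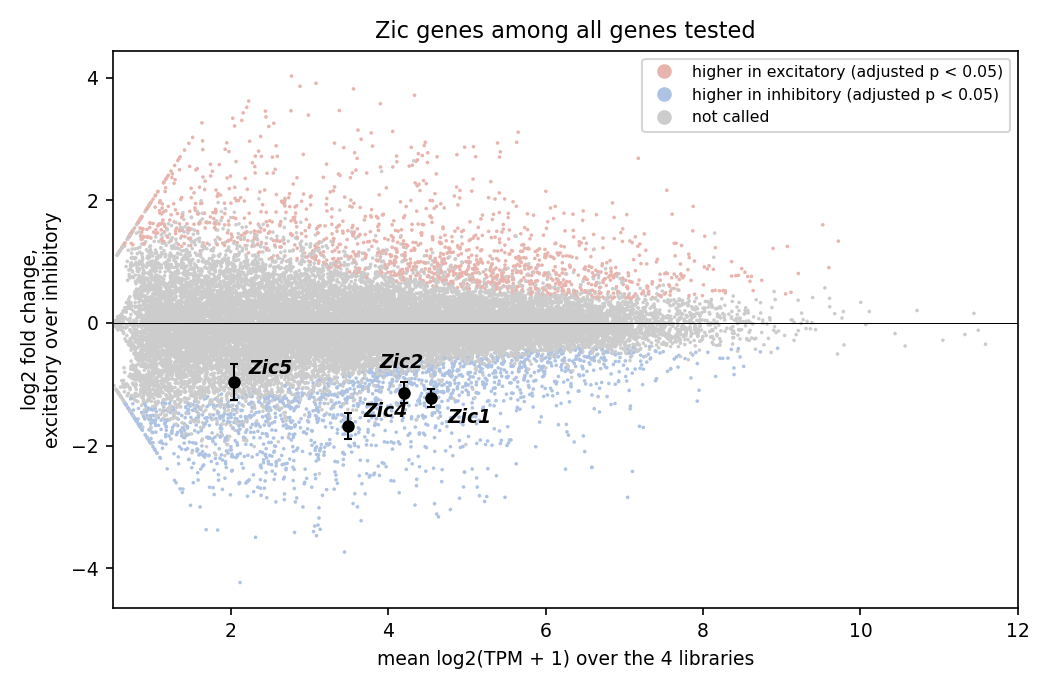
Each point is a gene, with the mean log2(TPM + 1) over the 4 libraries on the horizontal axis and the log2 fold change of excitatory over inhibitory on the vertical axis; the 4 Zic members are in black with their standard error. Zic1 (-1.22), Zic2 (-1.13) and Zic4 (-1.68) lie among genes called higher in inhibitory nuclei, while Zic5 (-0.97) lies at a low level among genes that were not called.

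The calls needed all 4 libraries. Leaving out any 1 of them left limma 1 residual degree of freedom and 0 calls among 26055 genes, with between 5311 and 5812 at an unadjusted p under 0.05. For Zic1 the adjusted p was 0.0727 without excitatory replicate 1, 0.0767 without excitatory replicate 2, 0.0815 without inhibitory replicate 1 and 0.0844 without inhibitory replicate 2. For Zic2 these were 0.104, 0.104, 0.125 and 0.0844, and for Zic4 0.0777, 0.0741, 0.0886 and 0.0968, in the same order. The log2 fold changes stayed between -1.26 and -1.18 for Zic1, between -1.27 and -0.996 for Zic2 and between -1.80 and -1.55 for Zic4. The calls on the gene lists given next were lost in the same fits.

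Other genes at the Zic loci were low. By position, 7 genes overlap a member or start within 20 kb of one, 6 were tested and 0 were called by limma, with 4 at an unadjusted p under 0.05. For 6 of the 7, both excitatory libraries lay below both inhibitory ones, while 33.3% of all genes tested did so. Of these 6, A730094K22Rik was too low to be tested. Gm29478, also among the 4, entered the test only through the inhibitory libraries, so its direction followed from the filter. Nearest by start site is 2610035F20Rik, a noncoding transcript on the minus strand. It starts 236 bases from the start of Zic2 and runs away from it. It had 2.16 and 3.21 TPM in excitatory libraries, against 5.61 and 9.04 TPM in inhibitory libraries, with a log2 fold change of -1.16 ± 0.33 (limma, adjusted p = 0.0755). Gm37477, which lies inside Zic4 on the other strand, had 1.28 and 2.05 TPM in excitatory libraries against 2.71 and 2.96 TPM in inhibitory libraries. Gm29478, a long intergenic RNA downstream of Zic4, was listed at 0 in excitatory replicate 1 and at 0.942 TPM in excitatory replicate 2, against 4.25 and 1.73 TPM in inhibitory libraries. Beyond Zic2 on the plus strand, Gm10837 had 0.676 and 1.89 TPM in excitatory libraries, against 3.29 and 5.46 TPM in inhibitory libraries (log2 fold change -1.26, adjusted p = 0.0984, limma), and it passed with protein-coding genes only (adjusted p = 0.0438). The pseudogene Gm9399, next to it, came nearest to the threshold, with 0.773 and 1.22 TPM in excitatory libraries, against 3.31 and 6.30 TPM in inhibitory libraries (log2 fold change -1.50, adjusted p = 0.0509, limma). Gm5089, the neighbour of Zic5 on the far side, overlapped between groups (1.05 and 1.67 TPM in excitatory, 1.55 and 1.01 TPM in inhibitory libraries).

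**Figure D3:**
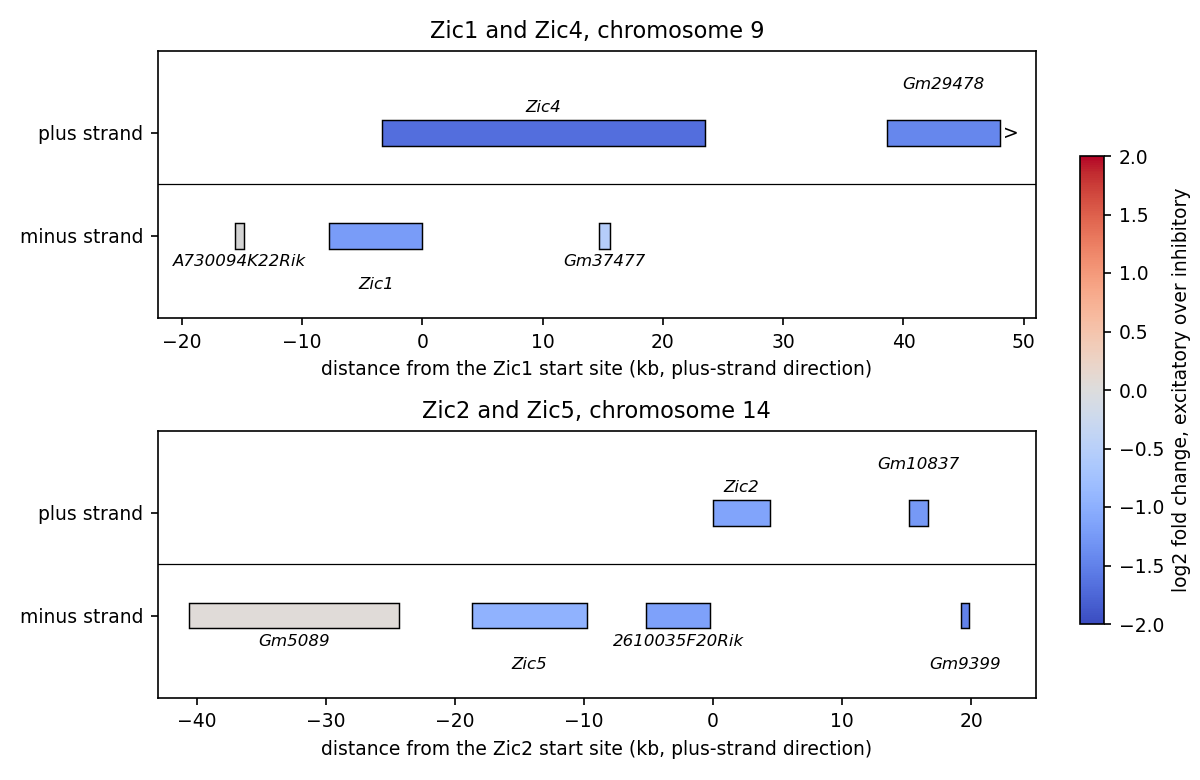
Maps of the gene spans at the Zic1 and Zic4 locus and at the Zic2 and Zic5 locus, by strand and distance in kb from the start site of Zic1 or Zic2, coloured by the log2 fold change of excitatory over inhibitory (grey for a gene not tested). Blue, for negative values, covers Zic1 (-1.22), Zic4 (-1.68), Zic2 (-1.13), Zic5 (-0.97) and the noncoding 2610035F20Rik (-1.16), while Gm5089 (0.05) is near 0.

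The sorted populations were checked against their defining markers. All 8 excitatory markers listed were called higher in excitatory nuclei, and all 7 inhibitory markers tested, of 8 listed, higher in inhibitory nuclei. Slc17a7, the vesicular glutamate transporter of the cortex, had 365 and 367 TPM in excitatory libraries, against 60.2 and 52.2 TPM in inhibitory libraries. Gad1, which makes GABA, had 44.98 and 38.1 TPM in excitatory libraries, against 226 and 207 TPM in inhibitory libraries. In excitatory nuclei the 7 inhibitory markers stood at 4.49% (Dlx5) to 19.2% (Gad1) of their inhibitory levels. Dlx5 entered the test only through the inhibitory libraries. The members, at 27.8% (Zic4), 41.1% (Zic5), 41.2% (Zic1) and 43.3% (Zic2), stood above this range. Over all 1725 genes called higher in inhibitory nuclei, the median was 34.9% and the quartiles 18.4% and 51.6%. In bulk nuclei, fewer cells of a type and less RNA per cell cannot be told apart.

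Markers of neuron types in which Zic genes are known were read beside the members. The background for this and each later list is 6.62% of all genes tested passing towards inhibitory nuclei and 5.43% towards excitatory nuclei. Of 12 genes tested for cerebellar granule and unipolar brush cells, 7 passed towards inhibitory nuclei, 0 towards excitatory nuclei (limma, 0 at an unadjusted p under 0.05) and 5 did not pass, with a median log2 fold change of -0.97 against -0.07 over all genes tested. Among the 5, Neurod1 (-0.17) and Etv1 (0.03) were nearest to level, and the listed Eomes and Lmx1a were too low to be tested. Barhl1 (-0.68), also among the 5, entered the test only through the inhibitory libraries. Gabra6, a GABA receptor subunit of granule neurons, had 34.9 and 29.8 TPM in excitatory libraries, against 66.8 and 62.1 TPM in inhibitory libraries. Reln, a matrix glycoprotein gene that cortical interneurons also express (-1.45), the NMDA receptor subunit gene Grin2c (-1.60), the synapse organiser gene Cbln1 (-1.20) and Gabra6 (-0.98) had the smallest p on this list. Pax6 and Cbln3 were no longer called without the filter on low values, nor was Cbln3 without the variance trend. In excitatory nuclei the 7 called genes stood at 30.6% (Grin2c) to 55.3% (Cbln3) of their inhibitory levels, with a median of 42.7%, and the members lay at 27.8% to 43.3%.

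Of 14 thalamic and habenular markers tested, 9 passed towards inhibitory and 2 towards excitatory nuclei, with a median log2 fold change of -1.87. The 2 were Lhx2 (1.61) and Nwd2 (1.12). The vesicular glutamate transporter gene Slc17a6 (-1.91), the Wnt pathway factor genes Lef1 (-3.18) and Tcf7l2 (-2.56) and Plekhg1 (-1.96) had the smallest p. The 9 genes called higher in inhibitory nuclei stood in excitatory nuclei at 7.48% to 51.6% of the inhibitory level, with a median of 16.98%. All 4 members lay within this span only through the guidance gene Ntng1, at its upper end. The next highest of the 9 was Slc17a6 at 25.6%, below every member. Of the 14, the 3 not called stood at 34.8% (Rgs16), 60.2% (Rora) and 92.6% (Ramp3). The span of the 9 therefore depends on the call, which Zic5 among the members did not pass either. Ntng1 was no longer called without the filter or without the variance trend. Septal and basal forebrain markers were called higher in inhibitory nuclei for 6 of 11 genes and higher in excitatory nuclei for 1, Trpc4, an ion channel of the lateral septum (0.56), whose call ended without the variance trend. Isl1, a homeobox factor of cholinergic neurons (-2.29), and Slc5a7, the choline transporter (-2.31), were among the 6. Without the filter, Lhx8 (adjusted p = 0.087) and Nts (adjusted p = 0.0539) were no longer called by limma, and Lhx8 was also lost without the variance trend and under quantile normalization. Of 12 midbrain and hindbrain markers tested, 7 passed towards inhibitory and 0 towards excitatory nuclei (limma, 0 at an unadjusted p under 0.05), with the glycine transporter gene Slc6a5 (-2.61) and the homeobox gene Lhx5 (-1.82) among them. Without the filter these 2 were still called, while Gata3, Sox14, Lhx1, Otx2 and En2 were not (limma, adjusted p between 0.06 and 0.0944). Sox14 was also lost with a pseudocount of 0.1 (limma, adjusted p = 0.0614), and En2 under quantile normalization (limma, adjusted p = 0.055). On these last lists, 6 and 7 of the genes tested entered only through inhibitory libraries, so their counts partly follow from the filter. Among the called genes these were Chat, Slc18a3, Slc5a7 and Lhx8 on the septal list. On the midbrain and hindbrain list they were Gata3, Sox14, Lhx5 and Otx2. The direction of these genes followed from the filter. In excitatory nuclei the 6 called septal and basal forebrain genes stood at 2.76% (Lhx8) to 24.2% (Nts) of their inhibitory levels. The 7 called midbrain and hindbrain genes stood at 8.43% (Otx2) to 34.2% (En2), a span that holds Zic4 (27.8%). The part that any of these populations has in the Zic levels was not tested.

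**Figure D4:**
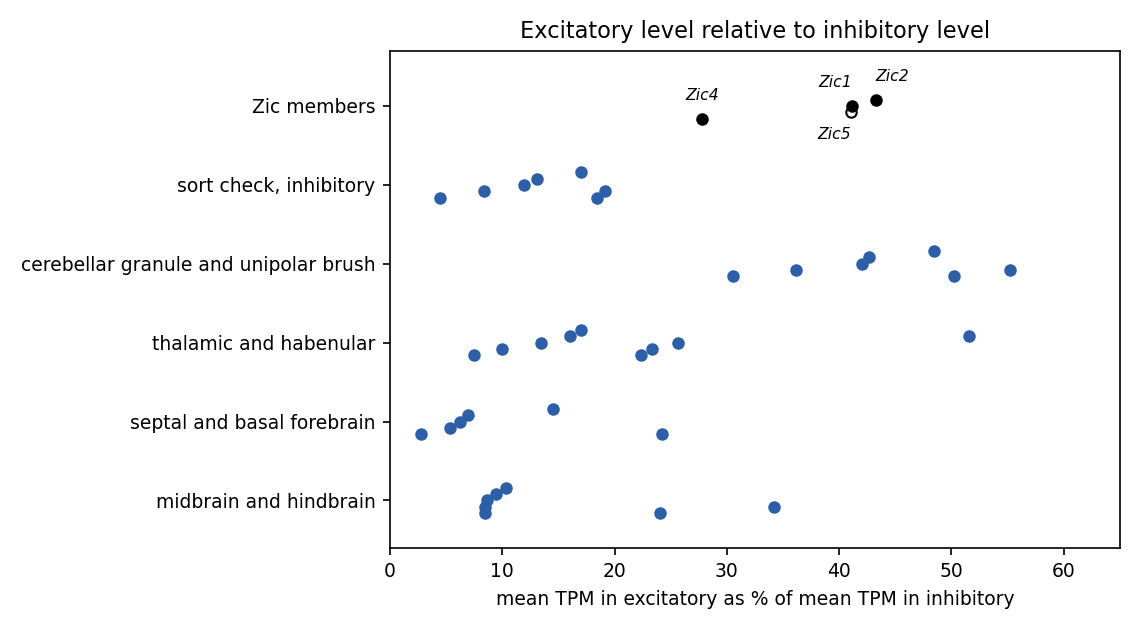
Mean TPM in excitatory nuclei as a percentage of mean TPM in inhibitory nuclei for the Zic members (Zic5, not called, as an open circle) and for the genes called higher in inhibitory nuclei on 5 marker lists, each point a gene. The members, at 27.8% to 43.3%, lie above the inhibitory sort markers (4.49% to 19.2%) and, except Zic4, within the span of the granule cell list (30.6% to 55.3%). They lie within the span of the called thalamic genes (7.48% to 51.6%) only through Ntng1, the next highest called gene being Slc17a6 (25.6%). The 3 thalamic genes tested but not called (Rgs16 at 34.8%, Rora at 60.2%, Ramp3 at 92.6%) are not drawn. Zic4 also lies within the span of the midbrain and hindbrain list (8.43% to 34.2%).

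Non-neuronal cells that express Zic genes were also looked for. Of 20 meningeal and vascular markers, 11 were under 1 TPM in every library, the collagen genes Col1a1 and Col3a1 among them, and 6 were tested. None was called higher in inhibitory nuclei by limma (0 calls, with 1 at an unadjusted p under 0.05), and the proteoglycan gene Dcn was called higher in excitatory nuclei (1.67), though not without the filter. The gene at an unadjusted p under 0.05, Lum, entered the test only through the inhibitory libraries. The list summed to 133 and 79.2 TPM in excitatory libraries, against 103 and 76.3 TPM in inhibitory libraries, which overlap. Ptgds, also an oligodendrocyte gene, gave 114 and 62.0 TPM of this in excitatory libraries, and 87.97 and 63.8 TPM in inhibitory libraries. The 12 glial and ependymal markers gave 0 calls in either direction, with 1 at an unadjusted p under 0.05, and summed to 391 and 329 TPM in excitatory libraries, against 356 and 267 TPM in inhibitory libraries. Of 7 olfactory bulb markers, 4 were tested and 0 called by limma (0 at an unadjusted p under 0.05), and Tbx21, the defining factor of bulb projection neurons, was listed at 0 in 3 libraries and at 0.265 TPM in excitatory replicate 1.

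The GLI relatives of the Zic genes and their Hedgehog pathway went both ways. Of 20 genes listed, 15 were tested, 2 were higher in excitatory nuclei, 2 higher in inhibitory nuclei and 11 not called, with a median log2 fold change of -0.31 against -0.07 over all genes tested. Gli3, the GLI factor best known as a repressor, had 1.64 and 1.62 TPM in excitatory libraries, against 5.55 and 5.91 TPM in inhibitory libraries (log2 fold change -1.35, adjusted p = 0.0285, limma). Gli1 and Gli2 were under 1 TPM in every library. Ptch1, the Hedgehog receptor and a target of the pathway, was also higher in inhibitory nuclei (-0.56), and the ligand gene Shh stood at 1.85 and 2.59 TPM in excitatory libraries, against 7.24 and 5.46 TPM in inhibitory libraries (adjusted p = 0.0527, limma). The opposite direction was taken by Glis3, a GLI-similar zinc finger factor (7.98 and 9.77 TPM in excitatory, 1.26 and 1.08 TPM in inhibitory libraries), and by the Hedgehog co-receptor gene Boc (28.5 and 28.5 TPM in excitatory, 13.0 and 11.1 TPM in inhibitory libraries). Without the filter on low values, Gli3 and Ptch1 were no longer called, nor was Ptch1 without the variance trend (adjusted p = 0.0977, limma). Shh passed without the variance trend (adjusted p = 0.0462, limma) and with protein-coding genes only (adjusted p = 0.0177).

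Genes linked to ZIC proteins in other work, as targets or partners, were listed as well. Of 12, 6 were tested, 5 passed towards inhibitory nuclei, 0 towards excitatory nuclei (limma, 0 at an unadjusted p under 0.05) and 1, Apoe, did not pass. Over all genes tested, 6.62% passed towards inhibitory and 5.43% towards excitatory nuclei. Of the 5, Slc6a4 entered the test only through the inhibitory libraries, so that its direction followed from the filter. Drd1, the dopamine receptor of striatal neurons, had 18.6 and 18.8 TPM in excitatory libraries, against 80.2 and 67.9 TPM in inhibitory libraries. Tcf7l2, also on the thalamic list, Th, the enzyme that starts dopamine synthesis (-2.37), the serotonin transporter gene Slc6a4 (-1.70) and the guidance receptor gene Ephb1 (-0.67) were the others. The granule neuron gene Atoh1 and the stem cell gene Nanog were listed at 0 in every library. Without the filter, Th, Slc6a4 and Ephb1 were no longer called, nor was Ephb1 without the variance trend (adjusted p = 0.0735, limma).

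**Figure D5:**
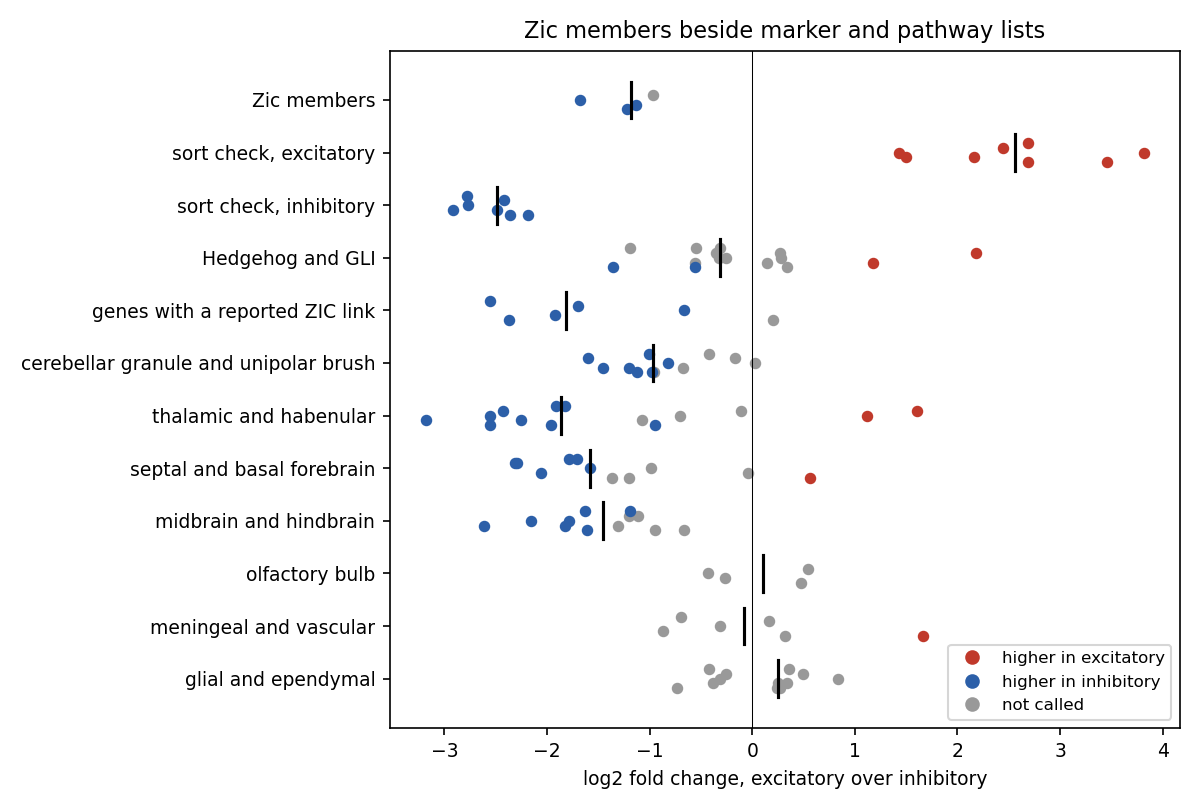
Log2 fold change of excitatory over inhibitory for the 4 Zic members and for the tested genes of each list, each point a gene, with calls in colour and the median of each row as a black line. The granule cell row (median -0.97) and the thalamic row (median -1.87) both overlap the members, the thalamic row reaches further towards either side, and the glial row (median 0.25) lies around 0.

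Genes whose values followed those of a member most closely were found among 13861 named protein-coding genes tested, by the distance between log2(TPM + 1) values centred on each gene's mean over the 4 libraries. For Zic1 they were Fgd5, Gpr83 and Gata2, for Zic2 Lgals8, Amelx and Stk32b, for Zic4 Homer3, Kcnh2 and Galntl6, and for Zic5 Erich3, Ntng1 and Rrp1b. Of these, Fgd5, Gata2, Amelx and Stk32b were low and entered the test only through the inhibitory libraries. Fgd5 had 0.969 and 0.852 TPM in excitatory libraries, against 3.35 and 3.65 TPM in inhibitory libraries. Gata2 had 0 and 0 TPM, against 1.29 and 1.32 TPM, in the same order. With a pseudocount of 0.1, the log2 fold change was -3.81 for Gata2 and -1.275 for Zic1. The closeness of Gata2 to Zic1 therefore depended on the pseudocount. Gpr83, a G protein-coupled receptor, had 13.1 and 13.0 TPM in excitatory libraries, against 30.2 and 32.1 TPM in inhibitory libraries, a distance of 0.0589 from Zic1. Homer3, a postsynaptic scaffold protein, had 10.7 and 12.8 TPM in excitatory libraries, against 36.3 and 42.6 TPM in inhibitory libraries, a distance of 0.0503 from Zic4. The members were further from each other, at 0.281 between Zic1 and Zic2, the nearest pair, where Zic2 ranked 230 among the genes by closeness to Zic1. With 4 libraries in 2 groups, the distance mainly reads the difference between groups, and many genes share it.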

How the data were processed

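Total RNA of sorted nuclei, freed of ribosomal RNA, went into directional libraries with paired reads of 150 bases, per the labels' protocols. The authors deposited TPM values, 1 column per library, and replicates were not pooled. StringTie 2.2.1, HISAT2 2.2.1, fastp 0.23.4, Bowtie2 2.3.5 and the build mm10 are named in the submitters' processing notes. No source used here gives their roles, the annotation or the use of strand. TPM keeps no depth, so depth is unknown and no counting interval was computed.

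Sample titles gave the group and replicate number of each library, and columns were matched by the column names in the descriptions. Positions came from GENCODE M21 (GRCm38), which held 55141 of the 55487 listed identifiers. The 26055 genes that reached 1 TPM in 2 or more libraries were compared on log2(TPM + 1), so with a pseudocount of 1, by limma 3.58.1 (R 4.3.3, variance trend, 2 residual degrees of freedom, prior worth 4.04), with Benjamini-Hochberg adjustment over all genes tested. The fit was tested on simulated data with independent errors and no filter step. That test covers neither the filter nor replicates that are not independent. A percentage of the inhibitory level is the ratio of mean TPM, and log2 fold changes of low genes are understated on this scale. Coding sequences were aligned with MAFFT 7.526, and figures drawn with matplotlib 3.10.9.

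The members and lists were chosen with earlier results of these data known. Named genes were the members, genes overlapping or starting within 20 kb of a member, the 3 genes most alike to each member, the sort checks Slc17a7 and Gad1, and up to 4 genes of each list by smallest p or others needed to say what moved. One further gene named in this rule is not reported here. Alternatives were other pseudocounts, filters, scalings and variance priors, protein-coding genes only, each library left out, and the replicate number as a block.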

Additional observations from a re-analysis of the deposited data

How the results depend on the processing

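Zic1, Zic2 and Zic4, and the sums Zic1 plus Zic4 and Zic2 plus Zic5, kept their direction and their call with pseudocounts of 0.1 and 0.5, without the filter, with a filter of 5 TPM, with no variance trend, under median ratio scaling and quantile normalization, with protein-coding genes only and with the replicate block. Their log2 fold changes over these 9 settings lay between -1.28 and -1.15, -1.19 and -1.06, -1.83 and -1.59, -1.45 and -1.34, and -1.21 and -1.09. Zic5 passed with protein-coding genes only (-1.06) and could not be tested at 5 TPM. Without the filter, 666 genes were higher in excitatory and 740 in inhibitory nuclei, against 1414 and 1725, and the Hedgehog and GLI list had 0 calls towards inhibitory nuclei (limma, 3 at an unadjusted p under 0.05). The sum of the 4 members differed by -51.9 TPM (excitatory minus inhibitory), -48.6 TPM under median ratio scaling and -84.6 TPM with protein-coding genes only, where rescaling raises every value.

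With 1 library left out, in fits with 1 residual degree of freedom, 0 genes were called in either direction, and on the Hedgehog and GLI list 0 in either (2 towards excitatory and 3 to 4 towards inhibitory at an unadjusted p under 0.05). The log2 fold changes were -1.26 to -1.18 for Zic1, -1.27 to -0.996 for Zic2, -1.80 to -1.55 for Zic4, -1.13 to -0.80 for Zic5, -1.47 to -1.36 for Zic1 plus Zic4 and -1.25 to -1.06 for Zic2 plus Zic5, and the sum of the 4 members differed by -52.6 to -51.2 TPM. Same-numbered replicates share only a number. Their deviations correlated at 0.0957 across 26055 genes, and with the replicate block 1946 genes passed towards excitatory and 2382 towards inhibitory nuclei, while of the genes near the members 2610035F20Rik, Gm10837 (adjusted p = 0.044) and Gm9399 (adjusted p = 0.0304) passed in limma. In that fit Zic1 (-1.22), Zic2 (-1.13) and Zic4 (-1.68) were called and Zic5 (-0.97, adjusted p = 0.0778, limma) was not. The median log2 fold change of all genes was -0.0732, and -0.00419 under median ratio scaling. There 1795 genes passed towards excitatory and 1563 towards inhibitory nuclei, and under quantile normalization 1661 and 1570, so the balance between the directions turned. What depth would add is unknown, since TPM keeps none.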
